A study of Mus musculus with 6 samples.

Results

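The miRNAs described here are 9 mature products of 5 hairpins, Mir146 (which gives miR-146a), Mir146b, Mir155, Mir132 and Mir212, chosen by name because they are known to be induced by NF-kB or CREB signalling. All 9 names were present among the 1907 distinct miRNAs of the deposited table. They were measured by small RNA sequencing of liver from healthy 12-week-old C57BL/6N mice on a chow diet, 3 females and 3 males described as littermates. No animal was treated, so the values are those of uninjured liver, and the comparison is female over male. The study asks how SAB, the mitochondrial product of Sh3bp5, relates to sex differences in acute liver injury.

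A mature miRNA guides Argonaute to messenger RNAs that pair with its seed, bases 2 to 8 from its 5′ end, and lowers their translation or stability. NF-kB induces miR-146a and miR-155 when Toll-like or cytokine receptors are engaged; miR-146a in turn represses the adaptors Traf6 and Irak1, and miR-155 represses Socs1 and Inpp5d. CREB, the factor activated by cyclic AMP and by growth signals, induces the paired miR-212 and miR-132 hairpins. In liver these miRNAs are known from hepatocytes as well as from Kupffer cells, other leukocytes and endothelium, so a level in whole tissue sums over cell types.

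The sequences show which of the miRNAs can share targets and which could share reads. They are RefSeq sequences on GRCm38.p6, printed 5′ to 3′ with the seed in capitals, and all 9 members matched RefSeq at the position given in the table. The pair of miR-146 5p products and the pair formed by miR-132-3p and miR-212-3p each have a common seed.
miR-146a-5p: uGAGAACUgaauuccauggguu
miR-146b-5p: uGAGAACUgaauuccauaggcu
miR-132-3p: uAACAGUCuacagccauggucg
miR-212-3p: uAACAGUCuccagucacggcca
miR-155-5p: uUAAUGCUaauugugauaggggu

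Counted from 1 at the 5′ end, with the base of miR-146a-5p first, the miR-146 pair differed by G18A and U21C and was identical over the first 17 bases. A read cut short before base 18 would therefore match both, and the sources used here do not say how such reads were assigned. miR-132-3p and miR-212-3p were identical over 9 bases and differed at 5 of 22 positions (A10C, C14U, U17C, U20C and G22A, with the base of miR-132-3p first). Among the 1623 miRNAs of the table that matched a RefSeq mature sequence by name, no other miRNA carried the seed of any member. The 3p products of the miR-146 hairpins did not resemble each other, with 4 of 22 positions identical.

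The hairpins lie at 4 places in the genome (mm10). Mir146 is on chromosome 11 on the minus strand, with miR-146a-5p at 43374435 to 43374456, and no other annotated gene overlaps it. Mir146b is on chromosome 19 within an intron of the protein-coding gene Mfsd13a on the same strand, with miR-146b-5p at 46342790 to 46342811. Mir155 is on chromosome 16, in an exon of its non-coding host transcript Mir155hg, with miR-155-5p at 84714143 to 84714165. Mir212 (75173388 to 75173478) and Mir132 (75173682 to 75173747) are neighbours on the plus strand of chromosome 11, with 203 bases between them, inside a non-coding gene, 1700016P03Rik, and outside its exons.

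The hairpins of the CREB-induced pair are shown with both mature arms in capitals, because their arms were read at different ratios in these libraries.
Mir212: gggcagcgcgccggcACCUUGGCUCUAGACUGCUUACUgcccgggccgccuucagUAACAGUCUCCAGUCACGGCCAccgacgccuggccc
Mir132: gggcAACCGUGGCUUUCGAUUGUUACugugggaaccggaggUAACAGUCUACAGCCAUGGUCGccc

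Female libraries held 3285249 to 5756419 counts and male libraries 4617645 to 16444675, which makes 1 count worth 0.0635 to 0.285 CPM (counts relative to the adjusted library size) depending on the library. CPM values were scaled by TMM, a normalisation that sets the typical miRNA equal between libraries. The hepatocyte miRNA miR-122-5p ranged from 315475 to 316480.4 CPM in females and from 343502 to 387285 CPM in males, so the defining marker of the labelled tissue was present, and the neuronal miR-124-3p had no count in any library. By the numbering of the sample titles all males precede all females, and sex cannot be told apart from that order. In whole liver, fewer cells of a type and less RNA per cell cannot be told apart either.

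Of the 9 members, 1 was abundant, 3 were moderate and 5 were scarce. miR-146a-5p, the main NF-kB feedback miRNA, averaged 2141 CPM over the 6 libraries, which placed it at rank 36 of the 1907 miRNAs, and it made up 95.3 to 96.0% of the counts of the 9 members in each library. Next came miR-155-5p at 36.6 ± 6.34 CPM, miR-132-3p at 28.8 ± 4.53 CPM and miR-146b-5p at 23.7 ± 6.65 CPM (SD, n = 6). Mature members are 22 or 23 bases long, so their CPM were compared without a length correction, although library chemistry can favour some sequences over others.

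The ranges of most neighbours in the order of levels overlapped. The ranges of miR-146a-5p and miR-155-5p did not meet, with a 58.5-fold ratio of means, nor did those of miR-146b-5p and miR-132-5p, with a 6.32-fold ratio. miR-155-5p exceeded miR-132-3p in 5 of 6 libraries and miR-132-3p exceeded miR-146b-5p in 3 of 6, while miR-155-5p exceeded miR-146b-5p in 6 of 6; the place of miR-132-3p among them was not fixed. Below them stood miR-132-5p at a mean of 3.75 CPM, miR-212-5p at 1.88 CPM and miR-212-3p at 0.899 CPM. The means of miR-146a-3p and miR-146b-3p were 0.459 and 0.104 CPM. Each of these ranges met that of its neighbour. Within libraries miR-132-5p exceeded miR-212-5p in 6 of 6, and miR-212-5p exceeded miR-212-3p in 4 with 1 tie. miR-212-3p exceeded miR-146a-3p in 5 with 1 tie, and miR-146a-3p exceeded miR-146b-3p in 4 with 2 ties, all on few counts.

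**Figure D1:**
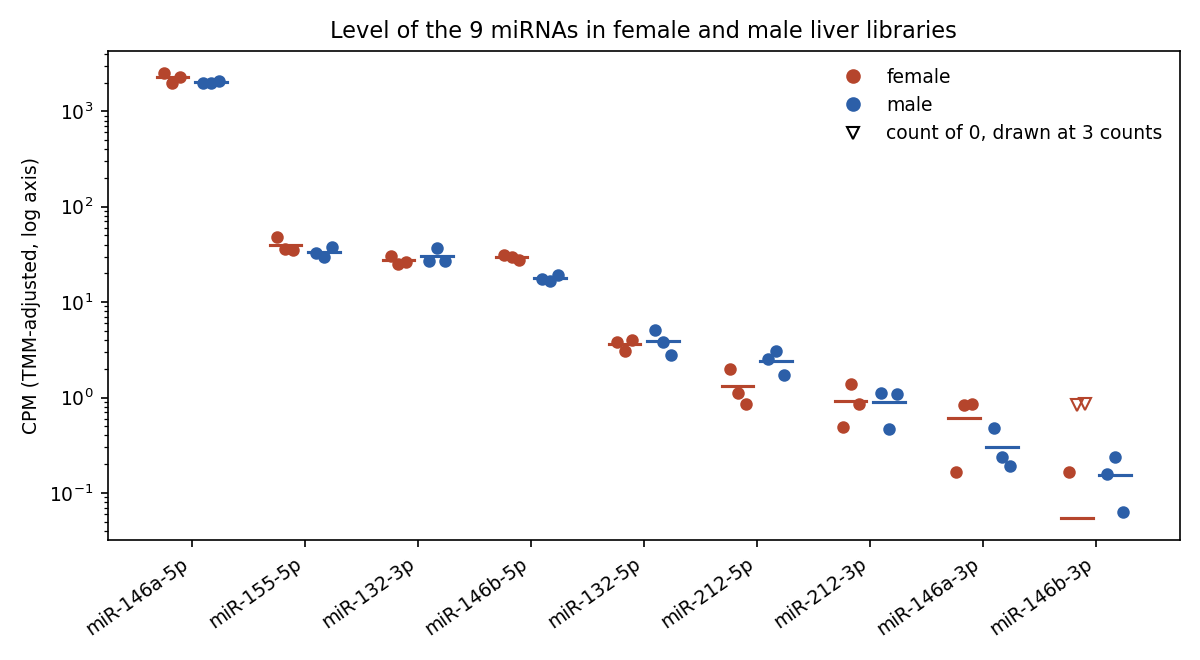
CPM of the 9 miRNAs on a log axis in each female and male library (points), with the group mean as a line (counts of 0 included). miR-146a-5p lies at 1983 to 2522 CPM, far above the others, and only for miR-146b-5p do the female points, 27.7 to 31.5 CPM, all lie above the male points, 16.8 to 19.1 CPM.

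Among the members, miR-146b-5p was higher in female liver, and it was the 1 member of the 6 tested that passed the threshold. This paralogue of miR-146a stood at 31.5, 29.6 and 27.7 CPM in the female libraries, against 17.4, 16.8 and 19.1 CPM in the male libraries. Every female library lay above every male library, and the spread within each sex was small beside the gap, with means of 29.6 ± 1.95 CPM for females and 17.7 ± 1.18 CPM for males (SD, n = 3 each). Its log2 fold change was 0.73 (SE 0.19, 95% interval 0.31 to 1.16), or 1.66-fold, with an adjusted p of 0.0454 (edgeR quasi-likelihood, Benjamini-Hochberg over 370 tested miRNAs). Of the 370, 3.24% were called higher in females, 3.51% lower and 6.76% in either direction; 10.5% had all female libraries above all male libraries, and 21.6% had groups that did not overlap in either direction. With so few members, 1 call of 6 cannot be set apart from these shares.

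The call sat just inside the threshold of 0.05 and was lost whichever single library was left out: adjusted p then ranged from 0.0538 to 0.146 in edgeR, with log2 fold changes of 0.67 to 0.80. With upper-quartile factors, under which the median tested miRNA stood at -0.10, the value was 0.64 (adjusted p = 0.0745, edgeR).

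miR-146a-5p, which has the same seed, did not pass the threshold. It stood at 2522, 1983 and 2282 CPM in the female libraries, against 1998, 1997 and 2065 CPM in the male libraries. Female replicates 1 and 3 lay above all males and female replicate 2 below them, so the groups overlapped. Its log2 fold change was 0.16 (SE 0.12, 95% interval -0.09 to 0.42, adjusted p = 0.532, edgeR). With 3 animals a sex the interval leaves room for a level up to 1.34-fold higher in females or down to 0.937 of that in males.

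Within a library, the share of miR-146b-5p in the reads of the common seed does not depend on scaling. It was 1.24, 1.47 and 1.2% in the female libraries, against 0.864, 0.833 and 0.914% in the male libraries. The female shares all exceeded the male ones, at 1.30 ± 0.146% in females and 0.870 ± 0.0409% in males (SD, n = 3 each). On the log2 scale the ratio of miR-146b-5p to miR-146a-5p differed by 0.58, female minus male, with p = 0.1 by exact two-sided permutation, which cannot go lower with 3 libraries a group (adjusted p = 0.6 over the 6 ratios tested). Since miR-146b-5p made up so little of the family, the summed level of the seed followed miR-146a-5p.

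**Figure D2:**
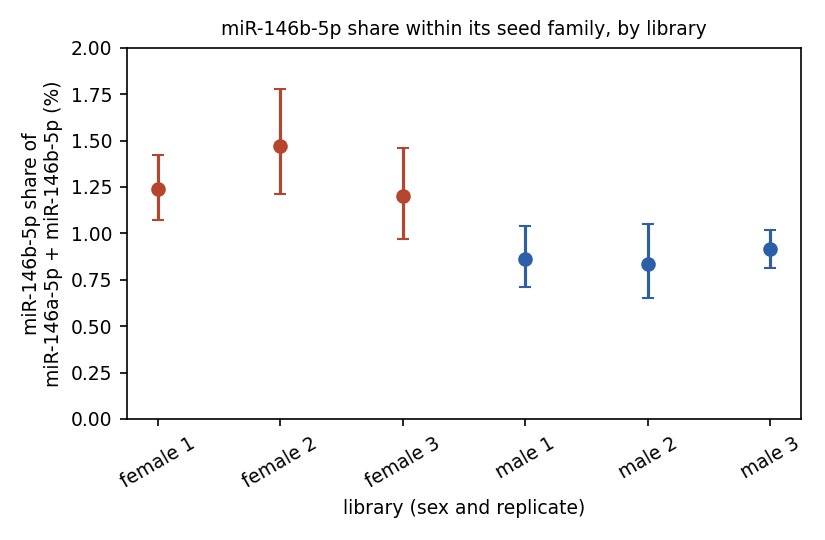
Share of miR-146b-5p in the summed counts of miR-146a-5p and miR-146b-5p, in percent, by library; bars are exact 95% binomial intervals, which cover counting error only. The female shares, 1.2 to 1.47%, lie above the male shares, 0.833 to 0.914%, while the counting intervals of female replicates 1 and 2 clear all male points and their upper limits.

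miR-155-5p, the NF-kB-induced miRNA made from Mir155hg, did not pass the threshold either. It stood at 48.1, 36.3 and 35.1 CPM in the female libraries, against 32.8, 29.5 and 38.1 CPM in the male libraries. Male replicate 3 lay above 2 of the females, so the groups overlapped. The log2 fold change was 0.25 (SE 0.21, 95% interval -0.22 to 0.72, adjusted p = 0.629, edgeR), and without female replicate 1, the highest library, it was 0.069. The other arm of its hairpin, miR-155-3p, which is not a member, had no count in any library.

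Of the CREB-induced miR-132 and miR-212, none of the 3 tested products passed. miR-132-3p, the major product of the pair and known for its activity-dependent role in neurons, stood at 30.4, 25.2 and 26.2 CPM in the female libraries, against 26.8, 37.3 and 26.8 CPM in the male libraries. Male replicate 2 was the highest library and the other 5 lay close together. The log2 fold change was -0.14 (SE 0.22, 95% interval -0.61 to 0.34, adjusted p = 0.795, edgeR), and it changed sign without male replicate 2, at 0.040, and with no TMM factor, at 0.00746.

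miR-132-5p, the lesser arm of the same hairpin, had 3.80, 3.04 and 3.99 CPM in the female libraries, against 5.07, 3.78 and 2.80 CPM in the male libraries. The males spanned the females, and the log2 fold change of -0.05 (SE 0.33, adjusted p = 0.963, edgeR) had an interval of -0.77 to 0.68. In both sexes miR-132-3p outnumbered miR-132-5p, by 8.0, 8.27 and 6.57 to 1 in the female libraries and by 5.28, 9.88 and 9.59 to 1 in the male libraries. The log2 arm ratio differed by -0.09, female minus male (exact two-sided permutation p = 0.9, adjusted p = 0.9), less than its SD of 0.18 in females and 0.50 in males.

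miR-212-5p had 12, 4 and 3 counts in the female libraries, or 1.98, 1.11 and 0.855 CPM, against 16, 13 and 27 counts in the male libraries, or 2.53, 3.07 and 1.72 CPM. The groups overlapped only through female replicate 1 and male replicate 3. The log2 fold change of -0.68 was the lowest of the tested members, but its SE was 0.43 and its 95% interval ran from -1.61 to 0.26 (adjusted p = 0.466, edgeR). Without female replicate 1 it was -1.21 (adjusted p = 0.295, edgeR). The females left in that fit had 4 and 3 counts, so miR-212-5p passed the low-count filter through male libraries only. Over the 5 fits that leave out a library and still test it, adjusted p was 0.295 to 0.791 (edgeR).

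miR-212-3p, which has the seed of miR-132-3p, was not tested because its counts were too low. It had 3, 5 and 3 counts in the female libraries and 7, 2 and 17 in the male libraries. Summed over each sex and divided by TMM-adjusted library sizes, the female to male ratio was 0.844, with an exact 95% counting interval of 0.377 to 1.77. It made up 1.60, 5.21 and 3.16% of the reads of the common seed in the female libraries, against 3.98, 1.25 and 3.87% in the male libraries. miR-132-3p thus supplied nearly all reads of this seed, and the log2 ratio of miR-132-3p to miR-212-3p differed by -0.19, female minus male (exact two-sided permutation p = 0.7, adjusted p = 0.84).

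The arms of the neighbouring hairpins stood in opposite order in 4 of the 6 libraries. Whereas miR-132 was mostly read as its 3p arm, miR-212-3p stood at 0.250, 1.25 and 1.0 times miR-212-5p in the female libraries, against 0.438, 0.154 and 0.630 times in the male libraries. The 5p arm was thus the more frequent in all 3 males and in female replicate 1. These ratios rest on few counts, with 5 of the 3p arm against 4 of the 5p arm in female replicate 2 and 3 against 3 in female replicate 3. The log2 arm ratio differed by 0.89, female minus male, with SDs of 1.15 and 0.92 (exact two-sided permutation p = 0.4, adjusted p = 0.8). It was 0.38 without male replicate 2, 0.49 without female replicate 2 and 1.55 without female replicate 1.

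The 3p arms of the miR-146 hairpins were near the limit of detection. miR-146a-3p had 1, 3 and 3 counts in the female libraries and 3, 1 and 3 in the male libraries, beside 7162 to 32506 counts of the 5p arm. miR-146b-3p had 1, 0 and 0 counts in the female libraries and 1, 1 and 1 in the male libraries; a count of 0 allows a level of up to 0.830 CPM in female replicate 2 and 0.855 CPM in female replicate 3 (3 counts each). Neither was tested. The log2 ratio of the 5p to the 3p arm differed by -0.66 for miR-146a and by 0.98 for miR-146b, female minus male (exact two-sided permutation p = 0.6 and p = 0.3, adjusted p = 0.8 for miR-146b and 0.84 for miR-146a). These values rest on few counts: without a library they ran from -1.41 to -0.25 for miR-146a and from 0.53 to 1.56 for miR-146b, and a pseudocount of 1 gave 0.59 for miR-146b.

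**Figure D3:**
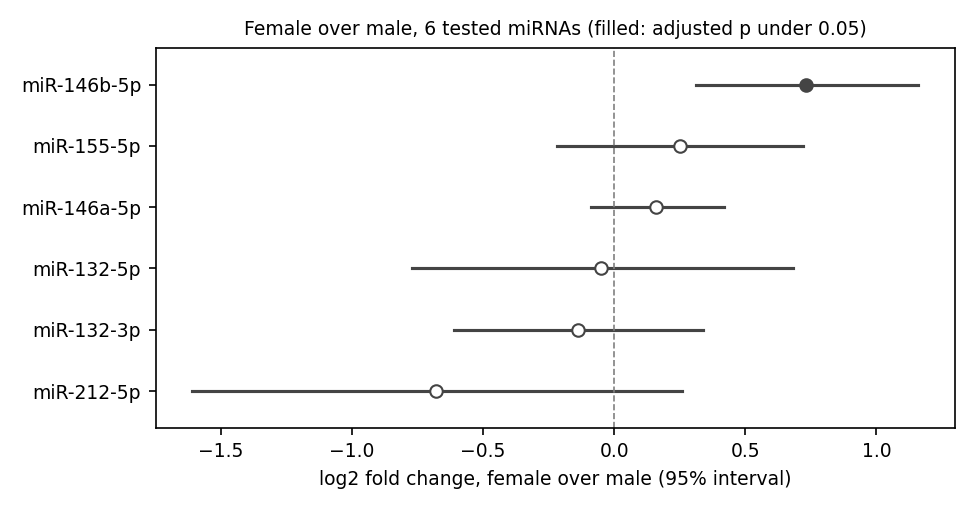
Log2 fold change, female over male, of the 6 tested miRNAs with 95% intervals from the edgeR fit. The interval of miR-146b-5p, 0.31 to 1.16, lies above 0; those of the other 5 hold 0, and that of miR-212-5p is the widest, at -1.61 to 0.26.

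Over the 6 tested members the median log2 fold change was 0.06 and 3 values were positive, beside a median of -0.01 and 178 positive values (48.1%) among all 370. Those that passed the filter on low counts are not all members: miR-146a-3p, miR-146b-3p and miR-212-3p did not.

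Of 21 other miRNAs of inflammatory and CREB signalling, a list drawn up with earlier results of these data known, 18 were tested. Their median log2 fold change was -0.08 and 8 values were positive, beside -0.01 and 178 (48.1%) among all 370. Of the 370, 3.24% were called higher and 3.51% lower in females, and of the 18, 1 was called higher and 1 lower. The higher one was miR-223-3p, a myeloid miRNA that restrains inflammasome signalling, with means of 322 ± 56.6 CPM (females) and 209 ± 13.7 CPM (males; SD, n = 3 each; log2 fold change 0.62, adjusted p = 0.0467, edgeR). The lower one was miR-21a-5p, induced by STAT3 and AP-1, at -0.60 (adjusted p = 0.00169, edgeR). The other 2 most abundant tested ones did not pass, with miR-125b-5p at -0.42 (adjusted p = 0.0809, edgeR) and miR-125a-5p at -0.20 (adjusted p = 0.672, edgeR). miR-21a-5p was also the most abundant of the list.

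Markers of leukocytes were measured beside the members, since miR-146 and miR-155 are made in leukocytes too. The log2 fold changes of the 6 leukocyte markers were all above 0, from 0.07 to 0.62, and 1 of them, miR-223-3p, passed just inside the threshold (adjusted p = 0.0467, edgeR). Among all 370 tested miRNAs, 48.1% were above 0 and 3.24% were called higher. The markers include both arms of miR-142a and of miR-223, so they are not 6 independent readings. Their summed level ranged from 4439 to 5032 CPM in females and from 3333 to 4793 CPM in males, so the groups overlapped, and none of the markers was at 0. miR-142a-3p, expressed across blood cells, stood at 0.17, 0.34 and 0.27 log2 units from the male mean in the female libraries, against 0.34, -0.24 and -0.10 in the male libraries. Its other arm, miR-142a-5p, had a log2 fold change of 0.58 (adjusted p = 0.299, edgeR). The values relative to the male mean for miR-146b-5p were 0.83, 0.74 and 0.64 in the female libraries, against -0.03, -0.08 and 0.10 in the male libraries. For the myeloid miR-223-3p they were 0.36, 0.60 and 0.87 in the female libraries, against 0.11, -0.06 and -0.05 in the male libraries. In miR-142a-3p male replicate 1 was as high as the highest female, and the groups also overlapped for miR-142a-5p, miR-342-3p and miR-223-5p. The last, the other arm of miR-223, had a log2 fold change of 0.07 (adjusted p = 0.942, edgeR). In both miR-223-3p and miR-146b-5p every female library lay above every male one, and in miR-150-5p narrowly so. Of all 370 tested miRNAs, 10.5% had this order. The part of leukocytes in the higher miR-146b-5p was not tested.

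No marker of the other cell types passed the threshold, but the hepatocyte miR-122-5p missed it narrowly (adjusted p = 0.053, edgeR). The stromal miR-199a-3p had an adjusted p of 0.0998 (edgeR). On the log2 scale, female over male, the 2 endothelial markers were at -0.07 and 0.02 for miR-126a-3p and miR-126a-5p. All 5 stromal markers were negative, with miR-143-3p at -0.21 and miR-199a-3p at -0.38, and so were all 3 biliary markers, with miR-200a-3p at -0.22 and miR-200b-3p at -0.26. The 3 erythroid markers were positive, with 0.03 for miR-486a-5p, 0.23 for miR-144-3p and 0.51 for miR-451a. Of the 5 hepatocyte markers 3 were positive, with miR-122-5p at -0.21, miR-192-5p at 0.02 and the other arm of miR-122, miR-122-3p, at 0.44. Of the 2 tested neuronal ones miR-128-3p was at -0.16 and miR-9-5p at -0.30.

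**Figure D4:**
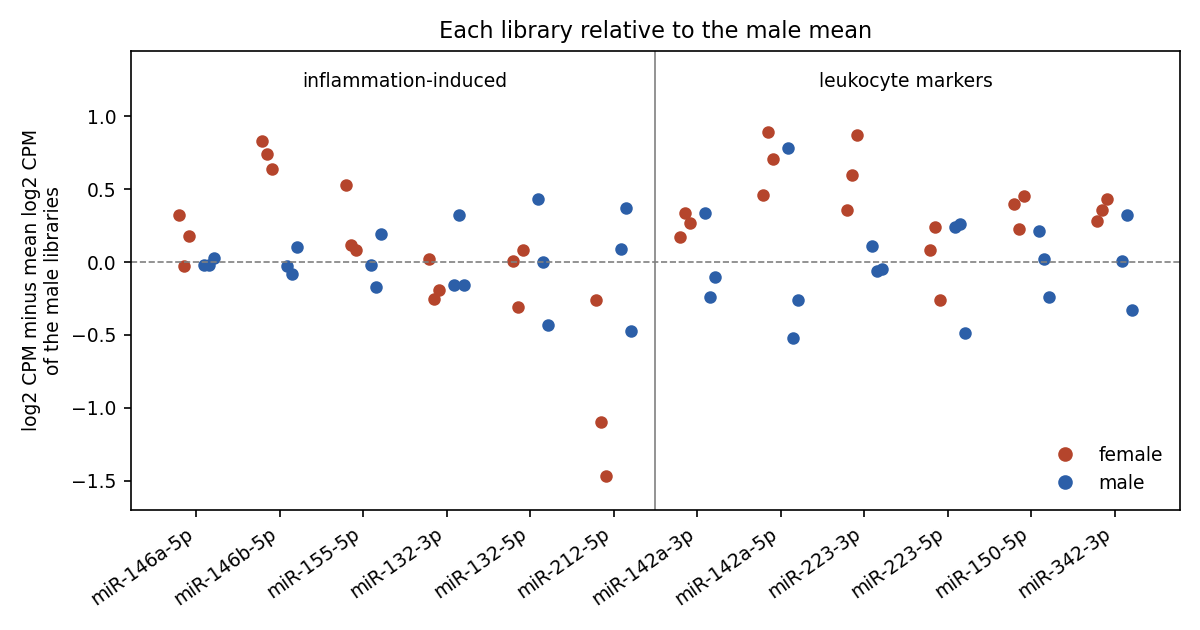
Log2 CPM of each library minus the mean log2 CPM of the male libraries, for the 6 tested inflammation-induced miRNAs and 6 leukocyte markers; points are libraries, female left of male. miR-146b-5p is the member whose female points, 0.64 to 0.83, all lie above its male points, -0.08 to 0.10. Among the markers miR-223-3p shows a gap, from 0.11 in males to 0.36 in females. For miR-150-5p the groups barely separate, at 0.21 in the highest male and 0.23 in the lowest female.

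The miRNAs with the most similar profile over the 6 libraries differed from member to member. Likeness was measured as the root-mean-square difference between log2(CPM + 0.5) values, each centred on its own mean. Nearest to miR-146b-5p were miR-137-3p (0.14 log2 units), miR-3105-3p (0.14) and miR-29b-2-5p (0.16), against a median distance of 0.44 over the tested miRNAs. miR-137-3p averaged 472 ± 80.4 CPM for females and 279.9 ± 26.8 CPM for males (SD, n = 3 each) and passed the threshold (adjusted p = 0.0206, edgeR), while miR-3105-3p and miR-29b-2-5p did not.

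The paralogue miR-146a-5p had other neighbours, miR-222-3p (0.06), miR-335-3p (0.09) and miR-23b-3p (0.12). For miR-155-5p these were miR-200a-5p (0.13), miR-93-3p (0.14) and miR-3105-5p (0.15). For miR-132-3p they were miR-92a-3p (0.07), miR-676-3p (0.08) and miR-100-5p (0.08), each of which was also highest in male replicate 2. miR-132-5p lay nearest to miR-181d-5p (0.11), miR-532-3p (0.17) and miR-185-5p (0.18), and miR-212-5p nearest to miR-339-3p (0.21), miR-7064-3p (0.23) and let-7c-1-3p (0.23). The distances are a description of these libraries, and a flat profile is close to any other flat one. Because neighbours were picked by their profile, a peak or sex difference shared with the member follows from that choice.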

How the data were processed

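Per the labels' protocols, liver pieces were frozen in an RNA-stabilising buffer and a Qiagen miRNA kit was used for the libraries. The deposited table gives estimated counts per mature miRNA, made by the authors and not normalised; the submitters' processing notes list Partek, Bowtie and mm10. Versions, trimming, the handling of multiply matching reads and the use of molecular identifiers are not stated in the sources used here. Of 2045 rows, 138 were exact repeats and were left out; counts were rounded to whole numbers, and all member counts were whole as deposited. Samples were grouped by labelled sex and numbered in accession order. No library pair was a duplicate (chi-square per degree of freedom of at least 25.3).

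Female and male libraries were compared with edgeR 4.0.16 in R 4.3.3 (quasi-likelihood, robust, TMM, filterByExpr with minimum count 10 and minimum total 15). Benjamini-Hochberg adjustment covered 370 tested miRNAs, with a threshold of 0.05. The procedure was also run on simulated counts, with the same dispersion for every miRNA and changes larger than that of miR-146b-5p. No result here rests on that run. SE is the log2 fold change over the square root of F. Ratios within a library used log2 of counts plus 0.5 and an exact permutation test. Intervals on counts and shares, and floors, cover counting error only. The p-values set the difference between the sexes against the variation between these samples. The members and lists were chosen with earlier results of these data known. Besides all members, the text names called or most abundant listed miRNAs and the 2 most abundant markers of each cell type. It also names the 3 nearest profiles of each tested member. Outside these rules it names miR-155-3p, miR-223-5p and miR-342-3p. miR-150-5p, miR-124-3p, miR-451a and miR-122-3p were singled out after their values were seen. Alternatives were other scalings (no TMM factor, upper-quartile factors, DESeq2 size factors), the DESeq2 1.42.0 Wald test, limma-voom (limma 3.58.1), other filters, thinning to 3285249 counts, a pseudocount of 1 and leaving out each library.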

Additional observations from a re-analysis of the deposited data

How the results depend on the processing

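The log2 fold change of miR-146b-5p stayed positive in all 14 alternatives, from 0.64 to 0.87, but passed the threshold in 5 of them, with adjusted p from 0.0104 (DESeq2) to 0.146. The count of members past the threshold was 0 with upper-quartile factors, with no filter, after thinning, and without any one library. The count of 25 called miRNAs became 13 with the filter of 50 counts and ranged from 9 to 32 without a library, with 9, 10 and 12 without female replicate 2, female replicate 3 and male replicate 3. No other tested member passed in any alternative. The split of calls was 12 higher and 13 lower, against 13 and 7 with no TMM factor and 7 and 19 with upper-quartile factors; the cause of these changes was not tested beyond the shift in the median, from -0.01 to 0.13 and -0.10. Signs changed for miR-132-3p (-0.24 to 0.040 without a library) with no TMM factor (0.00746) and without male replicate 2 (0.040), and for miR-132-5p (-0.30 to 0.18 without a library) with no TMM factor (0.090), in limma-voom (0.037), after thinning (0.22), without female replicate 2 (0.038) and without male replicate 1 (0.18). Without a library, the ratio of miR-146b-5p to miR-146a-5p ranged from 0.49 to 0.64, and the arm ratios of miR-146a from -1.41 to -0.25, of miR-146b from 0.53 to 1.56 and of miR-212 from 0.38 to 1.55. Without a library, the ratio of miR-132-3p to miR-212-3p ranged from -0.64 to 0.29 and reversed without female replicate 2 (0.20) and male replicate 2 (0.29), and the miR-132 arm ratio ranged from -0.38 to 0.065 and reversed without female replicate 3 (0.018), male replicate 2 (0.065) and male replicate 3 (0.056). miR-212-5p and miR-132-5p were not tested with the filter of 50 counts, and miR-212-5p not after thinning or without male replicate 1. Depth limits miR-146a-3p, miR-146b-3p and miR-212-3p, which had 17 counts or fewer in every library. No paired analysis was possible because the replicate numbers were given in accession order and the labels name no pairs.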
